A study of Sus scrofa with 18 samples.

Results

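The 10 genes described here are SRF, which encodes serum response factor, 6 genes of the contractile actin apparatus (ACTA2, TPM1, TPM2, MYL9, TAGLN and CNN1), and CCN1, CCN2 and ANKRD1, known targets of SRF and of the YAP and TAZ cofactors. They were chosen by name and matched to the gene symbols in the authors' deposited tables. All 10 had a row among the 15240 genes of the tables, and each was read in all 18 libraries of pig kidney cells.

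SRF is a DNA-binding factor that acts on genes of the actin cytoskeleton. Its cofactors MRTFA and MRTFB are held by monomeric actin and enter the nucleus when actin polymerizes, so the activity of SRF follows the state of the cytoskeleton. YAP and TAZ, which act through TEAD factors, read much the same mechanical state and share targets such as CCN1, CCN2 and ANKRD1 with SRF. In vessels, ACTA2, TAGLN and CNN1 are classical markers of smooth muscle cells and myofibroblasts, and quiescent endothelium has little of them.

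Total RNA was sequenced from cells labelled as primary porcine kidney endothelial cells, which the protocols describe as frozen at passage 5. For ST8Sia6 and GFP cells they give transfection with Lipofectamine LTX and use 24 hours later; whether Wild type and KEC plus all cells went through transfection is not stated. The treatment labels gave 5 Cell-cell interaction libraries, which the protocols tie to co-culture with PBMCs (blood mononuclear cells) of 4 individuals, 5 St8i6a plasmid libraries (the sialyltransferase ST8Sia6), 5 GFP control libraries (a fluorescent protein), 1 library of a negative treatment, KEC plus all cells, and 2 Wild type libraries. The Cell-cell interaction label did not say which plasmid the cells had received, and the labels did not say whether replicates were separate cultures, so p-values measure only the spread between these libraries, which may be technical. The protocols give 4 experiments, and the labels do not tie a library to any of them. Libraries are numbered by their order within a label.

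The labels and the authors' deposited comparisons did not group the libraries the same way. In a least-squares fit over all genes, each deposited log2 fold change was a weighted sum of the deposited log2 columns with 4 libraries on each side (R2 from 0.871 to 0.941). These weights gave an interaction St8i6a set (Cell-cell interaction 3, 4 and 5 and Wild type 1), an interaction GFP set (St8i6a plasmid 4 and 5 and Cell-cell interaction 1 and 2), a St8i6a plasmid set (GFP control 5 and St8i6a plasmid 1, 2 and 3) and a GFP control set (GFP control 1 to 4). Wild type 2 and KEC plus all cells were in no set (other weights were at most 0.108). ST8SIA6 itself did not settle it: its 3 highest counts were 439 in Cell-cell interaction 2, 61 in St8i6a plasmid 5 and 59 in St8i6a plasmid 1, and 8 of 18 libraries had 0. Closeness over all genes, as a chi-square over its degrees of freedom (about 1 for counting error alone), crossed the labels in part. GFP control 5 and St8i6a plasmid 1 were at 5.24. Wild type 1 was at 47.3 from Cell-cell interaction 5 and 140 from Wild type 2. St8i6a plasmid 5 was at 30.4 from Cell-cell interaction 2 and 346 from St8i6a plasmid 1. It also crossed the sets: GFP control 2 was at 36.6 from St8i6a plasmid 1 and 162 from GFP control 3. Results are therefore given by label and, beside them, by set.

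Counts summed to between 14867035 and 33301008 per library. St8i6a plasmid 4 and 5 and Cell-cell interaction 1 to 4 had 13.8% to 25.4% of their counts on the mitochondrial genome, against 1.22% to 4.32% in the other 12 libraries. Of 14 endothelial markers, 10 had a row, and PECAM1, a defining one, reached at most 4.86 CPM (counts scaled to a common library size with TMM factors). FLT1 was the most abundant at 35.1 to 159.9 CPM, while the kidney epithelial markers KRT8 (576 to 1522 CPM) and PAX2 (102 to 187 CPM) and the fibroblast collagen COL1A1 (2886 to 18339.9 CPM) were high in every library. CDH5, VWF, KDR and TEK had no row under these symbols and were not analysed. Only 11927 of the 15240 rows carried a symbol, so their levels are not known here. The cells are therefore called by their label without a claim that they were endothelial.

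Per kilobase of the deposited gene length, the mean level over 18 libraries was highest for TAGLN at 624 CPM per kb and CCN1 at 441 CPM per kb. MYL9 (205 CPM per kb), CCN2 (184 CPM per kb), TPM1 (163 CPM per kb) and TPM2 (117 CPM per kb) followed. ACTA2 (95.4 CPM per kb) and ANKRD1 (87.6 CPM per kb) were lower, and CNN1 (19.3 CPM per kb) and SRF (16.5 CPM per kb) were lowest. TAGLN and CCN1 held the first 2 ranks in each of the 18 libraries, with TAGLN first in 14. The order of the middle genes was not fixed: ACTA2 ranked between 4 and 9 and ANKRD1 between 6 and 9. SRF and CNN1, next to each other at the bottom, overlapped in their ranks.

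**Figure D1:**
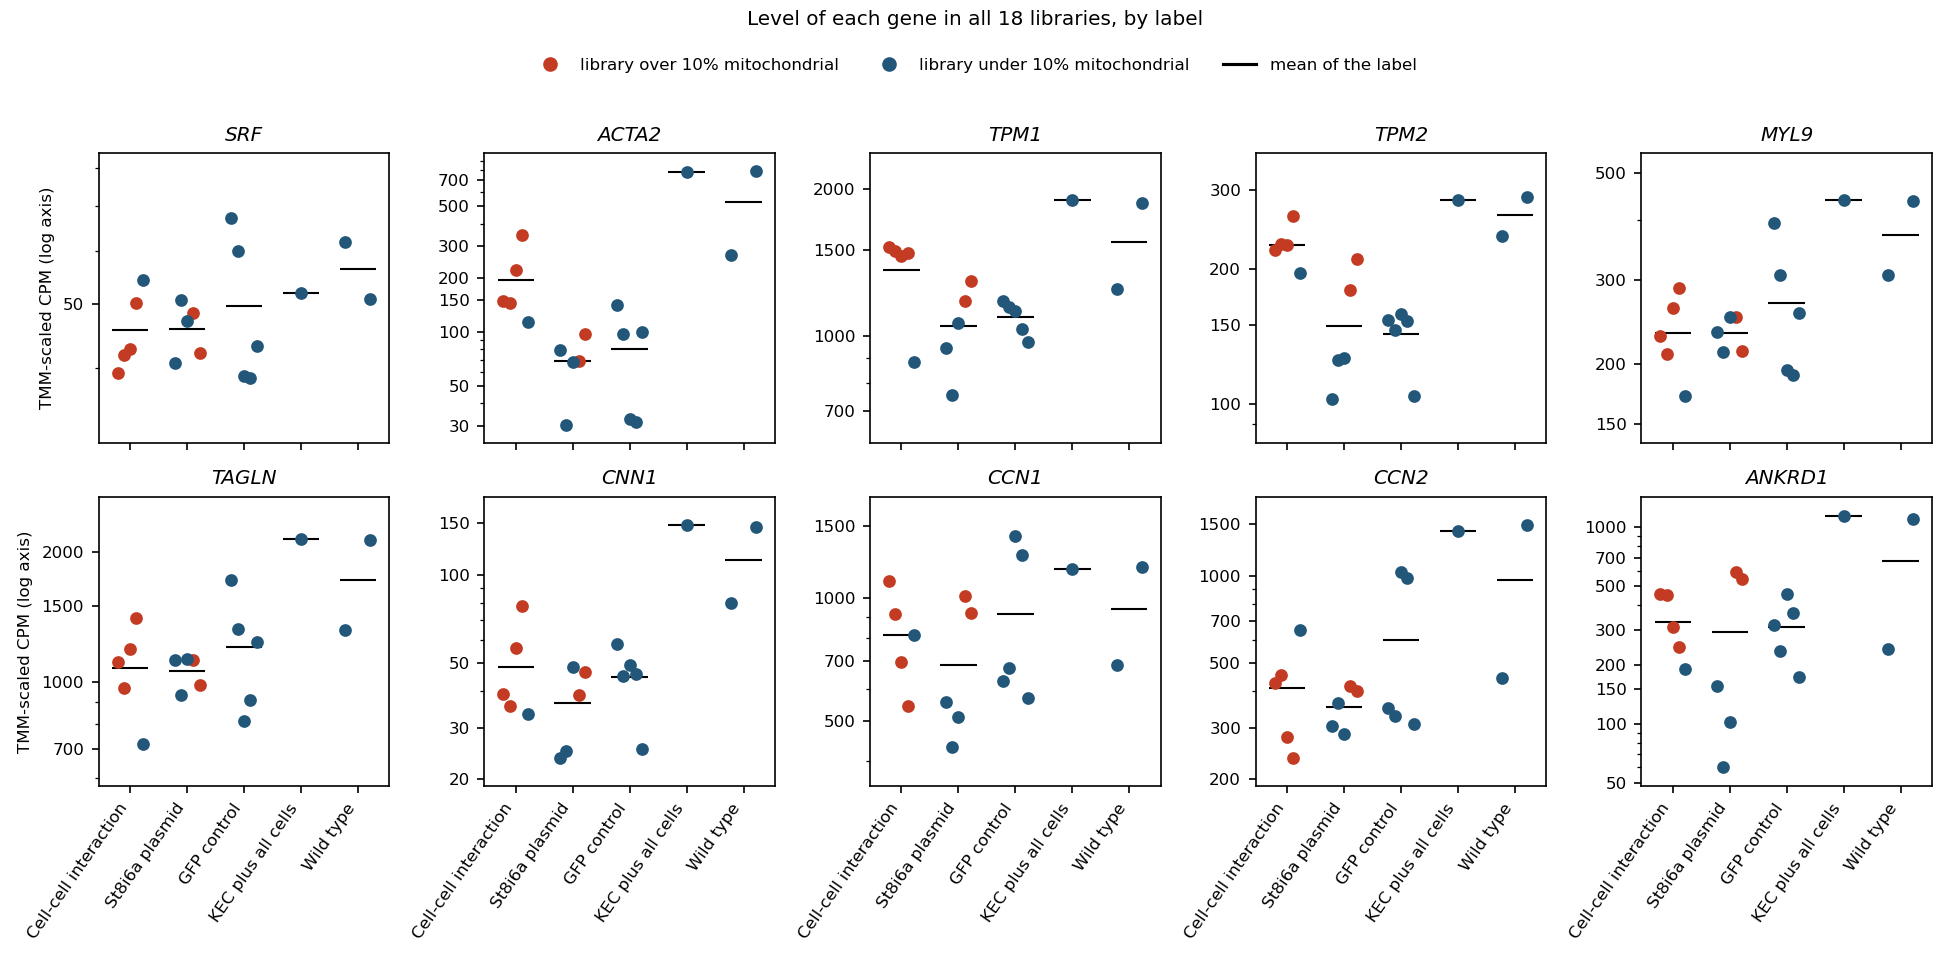
TMM-scaled CPM (log axis, a different range in each panel) of the 10 genes in each of the 18 libraries, by label; points are libraries, red where over 10% of counts were mitochondrial, and bars are the mean of a label. TPM2 is higher in all 5 Cell-cell interaction libraries (196 to 262 CPM) than in the 5 GFP control libraries (104 to 158 CPM), and KEC plus all cells and Wild type 2 lie at the top in 8 of the 10 panels.

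SRF (chr7:38213063-38222140, plus strand, susScr11) was the steadiest of the 10 genes, with a 1.74-fold range over the 18 libraries. It had 39.4, 41.9, 42.8, 50.1 and 54.2 CPM in Cell-cell interaction 1 to 5, 40.8, 50.7, 47.1, 48.5 and 42.2 CPM in St8i6a plasmid 1 to 5, and 67.3, 60.0, 38.9, 38.7 and 43.2 CPM in GFP control 1 to 5. KEC plus all cells had 51.9 CPM, and Wild type 1 and 2 had 61.9 and 50.9 CPM. GFP control held both the highest library and the lowest one, so the whole range of SRF lay within 1 label.

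ACTA2 (chr14:100867733-100886713, minus strand) encodes smooth muscle alpha-actin, the main actin of contractile fibres in smooth muscle and myofibroblasts. It had the widest range, 26.1-fold over 18 libraries and 11.5-fold without KEC plus all cells and Wild type 2. Its levels were 149, 144, 220.2, 347 and 114 CPM in Cell-cell interaction 1 to 5, 79.0, 30.3, 68.3, 68.5 and 97.1 CPM in St8i6a plasmid 1 to 5, and 142, 97.3, 32.6, 31.3 and 100.1 CPM in GFP control 1 to 5. KEC plus all cells had 775 CPM, and Wild type 1 and 2 had 269 and 791 CPM. Cell-cell interaction lay above each St8i6a plasmid library and overlapped GFP control through GFP control 1.

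The tropomyosins TPM1 (chr1:108986981-109019440, minus strand) and TPM2 (chr1:236402247-236410471, minus strand) wind along the actin filament and set which motors and regulators can bind it. TPM1 had 1520.2, 1491, 1459, 1481 and 883 CPM in Cell-cell interaction 1 to 5, 942, 755, 1062, 1181 and 1298 CPM in St8i6a plasmid 1 to 5, and 1179, 1144, 1126, 1031 and 973 CPM in GFP control 1 to 5. Apart from Cell-cell interaction 5, which was the lowest of those 5, the interaction libraries lay above all libraries of both plasmid labels. TPM2 had 220.3, 227, 226, 262 and 196 CPM in Cell-cell interaction 1 to 5, 102, 125, 127, 179 and 210.4 CPM in St8i6a plasmid 1 to 5, and 154, 146, 158, 153 and 104 CPM in GFP control 1 to 5. St8i6a plasmid 4 and 5, 2 of the libraries over 10% mitochondrial, were the high ones of their label. In KEC plus all cells TPM1 had 1894 CPM and TPM2 285 CPM. In Wild type 1 and 2, TPM1 had 1250.2 and 1869.9 CPM and TPM2 had 237 and 289.7 CPM.

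MYL9 (chr17:39788199-39795296, plus strand) encodes a regulatory light chain of myosin, whose phosphorylation starts contraction, and TAGLN (chr9:44560785-44567385, plus strand) encodes transgelin, an actin-bundling protein. MYL9 had 229, 209, 261, 288 and 172 CPM in Cell-cell interaction 1 to 5, 233, 212, 251, 250.1 and 213 CPM in St8i6a plasmid 1 to 5, and 393, 307, 194, 189 and 255 CPM in GFP control 1 to 5. TAGLN had 1108, 969, 1189, 1408 and 717 CPM in Cell-cell interaction 1 to 5, 1120.5, 934, 1129.6, 1123 and 982 CPM in St8i6a plasmid 1 to 5, and 1724, 1328, 809.7, 906 and 1237 CPM in GFP control 1 to 5. The pair moved together from library to library: after each was centred on its own mean, they differed by a root mean square of 0.0776 on the log2 scale, the smallest of the 45 pairs. In KEC plus all cells MYL9 had 440.3 CPM and TAGLN 2143 CPM, while in Wild type 1 and 2 MYL9 had 307 and 437 CPM and TAGLN 1317 and 2128 CPM. For both genes the 3 labels of transfected cells overlapped.

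CNN1 (chr2:70182925-70197384, plus strand) encodes calponin, an actin-binding brake on smooth muscle contraction. It had 39.2, 35.6, 56.4, 78.0 and 33.5 CPM in Cell-cell interaction 1 to 5, 23.7, 25.0, 48.3, 38.8 and 46.6 CPM in St8i6a plasmid 1 to 5, and 58.0, 45.2, 49.2, 45.9 and 25.5 CPM in GFP control 1 to 5. KEC plus all cells had 148 CPM, and Wild type 1 and 2 had 80.0 and 145 CPM. The 3 lowest values were those of St8i6a plasmid 1, St8i6a plasmid 2 and GFP control 5, which the deposited comparisons place in 1 set.

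CCN1 (chr4:130392404-130395150, minus strand) and CCN2 (chr1:31673798-31677696, plus strand) encode secreted matricellular proteins that bind integrins, also known as CYR61 and CTGF. CCN1 had 1102, 914, 698, 545 and 814 CPM in Cell-cell interaction 1 to 5, 556, 433, 512, 1014 and 920.5 CPM in St8i6a plasmid 1 to 5, and 628, 676, 1418, 1279 and 571 CPM in GFP control 1 to 5. CCN2 had 429, 455, 279, 237 and 648 CPM in Cell-cell interaction 1 to 5, 304, 364, 285, 417 and 401 CPM in St8i6a plasmid 1 to 5, and 351, 331, 1030.0, 979.7 and 308 CPM in GFP control 1 to 5. GFP control 3 and 4 stood far above the other 3 libraries of their label in both genes, while in ACTA2, MYL9, TAGLN and SRF they were the lowest 2 of that label. KEC plus all cells had 1181 CPM of CCN1 and 1424 CPM of CCN2. Wild type 1 and 2 had 687 and 1194 CPM of CCN1 and 446 and 1490.2 CPM of CCN2.

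ANKRD1 (chr14:102603777-102612839, minus strand) encodes an ankyrin repeat protein of muscle and nucleus that is induced by stretch. It had 455, 452, 309, 245 and 191 CPM in Cell-cell interaction 1 to 5, 156, 60.1, 102, 594 and 548 CPM in St8i6a plasmid 1 to 5, and 319, 235, 455, 368 and 172 CPM in GFP control 1 to 5. KEC plus all cells had 1144 CPM, and Wild type 1 and 2 had 239 and 1103 CPM. The St8i6a plasmid label was split, with its replicates 1 to 3 at the bottom of the 18 libraries and its replicates 4 and 5 above all GFP control and Cell-cell interaction libraries.

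In the Cell-cell interaction libraries 2 of the 10 genes were higher than in GFP control and none was lower. These were ACTA2 and TPM2, and the 8 others did not pass the test. Over all 13951 genes tested 39.5% passed in either direction and 20.8% were higher, so 2 of 10 was about the background share. ACTA2 averaged 195 ± 93.5 CPM in Cell-cell interaction and 80.6 ± 47.8 CPM in GFP control (SD, n = 5 each). Its log2 fold change was 1.30 ± 0.45 (SE), with an adjusted p of 0.0393 (edgeR, quasi-likelihood, corrected by Benjamini and Hochberg over all genes tested). The ACTA2 call was lost when any 1 of Cell-cell interaction 1, 2, 3 or 4 or of GFP control 2, 3, 4 or 5 was left out (adjusted p from 0.0531 to 0.119 in these 8 edgeR fits).

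TPM2 averaged 226 ± 23.6 CPM in Cell-cell interaction and 143 ± 22.3 CPM in GFP control (SD, n = 5 each). The log2 fold change was 0.69 ± 0.14 (edgeR adjusted p = 0.00323) and the libraries of the 2 labels did not overlap, as for 24.6% of all genes tested. TPM2 passed with any 1 library left out. TPM1, at 1367 ± 271 CPM in Cell-cell interaction and 1091 ± 85.6 CPM in GFP control, had a log2 fold change of 0.36 ± 0.18 that did not pass (edgeR adjusted p = 0.126), and passed only without Cell-cell interaction 5, where 50.5% of genes did. CCN2 had the most negative value, a log2 fold change of -0.52 ± 0.41 that did not pass (edgeR adjusted p = 0.332). In Cell-cell interaction 4 of the 5 libraries were over 10% mitochondrial, and none of the GFP control libraries was. Cell-cell interaction 5 alone was also set against GFP control, which assumes that the lone library varies like the others. The log2 fold change was then 0.44 for ACTA2 and 0.41 for TPM2. The median log2 fold change of the 10 genes was 0.02, beside -0.02 over all genes tested.

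The same label against St8i6a plasmid gave no call among the 10 genes, where 0.159% of the 13849 genes tested passed. All 10 log2 fold changes were above 0, with a median of 0.26, against 0.00 over all genes tested. ACTA2 averaged 195 ± 93.5 CPM in Cell-cell interaction and 68.6 ± 24.4 CPM in St8i6a plasmid (SD, n = 5 each), without overlap of libraries, as for 8.65% of genes. Its log2 fold change of 1.54 ± 0.36 did not pass (edgeR adjusted p = 0.0594), nor did that of TPM2, 0.64 ± 0.19 (edgeR adjusted p = 0.0754). At an unadjusted p under 0.05 there were 2 members and 32.6% of genes, and DESeq2 called ACTA2 (adjusted p = 0.00109) and TPM2 (adjusted p = 0.0187) among 19.6% of genes, while limma-voom called no member and 2.43% of genes. ACTA2 and TPM2 passed edgeR without St8i6a plasmid 5, where 20.1% of genes did, and with TPM1 without Cell-cell interaction 5, where 23.7% did. These last shares are near those of the members but count both directions, while the called members were all higher. Genes called higher were 1502 of 13956 without St8i6a plasmid 5 and 1541 of 13985 without Cell-cell interaction 5.

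St8i6a plasmid libraries did not differ from GFP control libraries in any of the 10 genes by the test, and none of the 13840 genes tested passed (0% of genes). An unadjusted p under 0.05 was met by 1367 genes (9.88%) and 0 members. DESeq2 called 11 genes and limma-voom 0, with no member called by either tool. CCN2, at 354 ± 58.2 CPM in St8i6a plasmid and 599.9 ± 370.4 CPM in GFP control, had the largest difference, a log2 fold change of -0.72 ± 0.35 (edgeR adjusted p = 0.502). The spread of CCN2 in GFP control, from 308 to 1030.0 CPM, was wider than the difference of the means.

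Grouped by the deposited sets, the 10 genes were tested again. The plot of the libraries by set shows ACTA2 and CNN1 above their means in 3 of the 4 interaction St8i6a libraries (not in Cell-cell interaction 5) and TPM2 in all 4, while all 3 genes lie below their means in the St8i6a plasmid set. ANKRD1 and CCN1 lie above their means in all 4 libraries of the interaction GFP set. For the sets, the same edgeR test was run on 4 libraries against 4, each counted as 1 unit. Sets could hold close pairs by the chi-square over its degrees of freedom. Cell-cell interaction 3 and 4 were at 10.7, but 3 and 5 at 566. GFP control 5 and St8i6a plasmid 1 were at 5.24, but St8i6a plasmid 1 and 2 at 98.6. GFP control 3 and 4 were at 21.7, but 1 and 3 at 233. The interaction GFP set ran from 13.2 to 47.1. If close pairs share a culture, the p-values by set rest on fewer units than libraries.

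**Figure D2:**
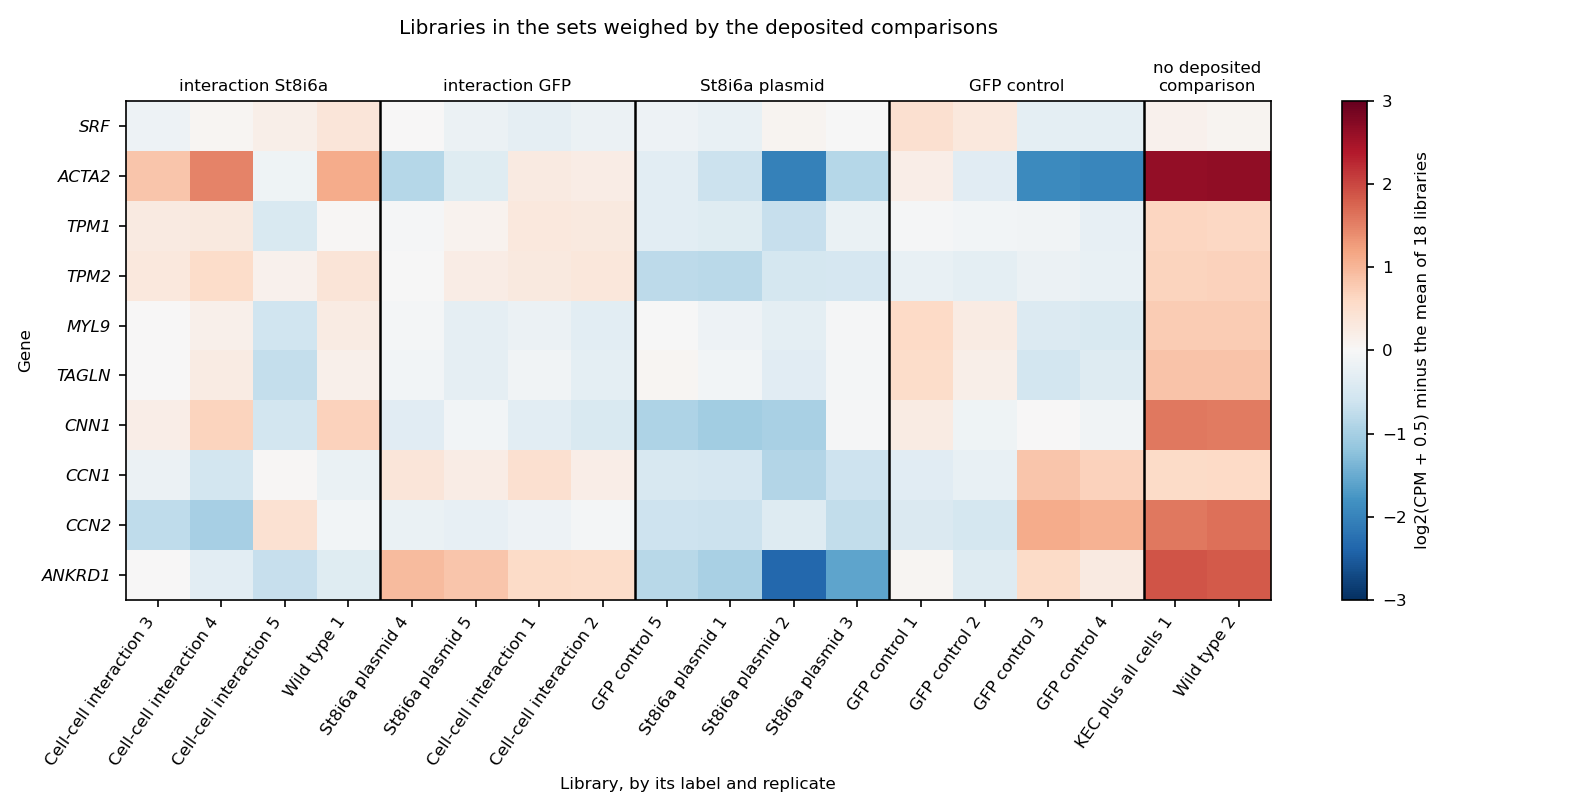
Each cell is log2(CPM + 0.5) of a gene in a library minus the mean of that gene over 18 libraries (red higher, blue lower), with libraries named by label and arranged by the sets that the authors' deposited comparisons weigh. ANKRD1 is below its mean in all 4 libraries of the St8i6a plasmid set and above it in all 4 of the interaction GFP set.

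The interaction St8i6a set was higher than the St8i6a plasmid set in ACTA2 and TPM2, and no member was lower. Of the 13989 genes tested 20% passed in either direction and 10.9% were higher. TPM2 averaged 230.1 ± 27.3 CPM in the interaction St8i6a set and 115 ± 13.2 CPM in the St8i6a plasmid set (SD, n = 4 each), a log2 fold change of 1.01 ± 0.14 (edgeR adjusted p = 0.00376). Its libraries ran from 196 to 262 CPM in the interaction St8i6a set and from 102 to 127 CPM in the St8i6a plasmid set, so they did not overlap. TPM2 passed with any 1 library left out and also with only the 6 libraries under 10% mitochondrial (log2 fold change 0.87, edgeR adjusted p = 0.0110, with 0.000157 to 0.0189 over its alternatives). The interaction side of that fit was only Cell-cell interaction 5 (196 CPM) and Wild type 1 (237 CPM). Wild type 1 is not labelled as an interaction library. In those 6 libraries CCN2 was called higher too (log2 fold change 0.74, edgeR adjusted p = 0.0267), where all 8 gave 0.34 ± 0.28 and no call, and 15.9% of genes were called. ACTA2 averaged 238 ± 97.5 CPM in the interaction St8i6a set and 69.4 ± 29.3 CPM in the St8i6a plasmid set, a log2 fold change of 1.78 ± 0.42 (edgeR adjusted p = 0.0216), also without overlap. The ACTA2 call was lost without Cell-cell interaction 4, St8i6a plasmid 1 or St8i6a plasmid 3, and in the libraries under 10% mitochondrial (edgeR adjusted p from 0.0156 to 0.108 over its alternatives).

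CNN1 and ANKRD1 lay just short of a call in the same comparison. CNN1 averaged 62.0 ± 21.8 CPM in the interaction St8i6a set and 30.6 ± 11.8 CPM in the St8i6a plasmid set, a log2 fold change of 1.02 ± 0.33 (edgeR adjusted p = 0.0552). ANKRD1 averaged 246 ± 48.5 CPM in the interaction St8i6a set and 123 ± 51.4 CPM in the St8i6a plasmid set, a log2 fold change of 1.01 ± 0.32 (edgeR adjusted p = 0.0530), with no overlap between its libraries. Groups without overlap made up 27.9% of all genes in this comparison. In 1 edgeR fit over the 16 libraries of the 4 sets both passed (adjusted p = 0.0133 for CNN1 and 0.0192 for ANKRD1), as did 22.6% of genes. All 10 genes had log2 fold changes above 0, the smallest being 0.07 for TAGLN, with a median of 0.42 beside -0.01 over all genes tested.

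The interaction GFP set was higher than the GFP control set in TPM2 and ANKRD1, and no member was lower. Of the 14008 genes tested 46.9% passed and 21.7% were higher. TPM2 averaged 209 ± 21.3 CPM in the interaction GFP set and 153 ± 5.19 CPM in the GFP control set (SD, n = 4 each), a log2 fold change of 0.47 ± 0.12 (edgeR adjusted p = 0.00898) that passed with any 1 library left out. Its libraries did not overlap, as for 46.8% of genes. ANKRD1 averaged 512 ± 70.5 CPM in the interaction GFP set and 344 ± 92.0 CPM in the GFP control set, a log2 fold change of 0.58 ± 0.19 (edgeR adjusted p = 0.0277). The ANKRD1 call was lost without St8i6a plasmid 4, St8i6a plasmid 5, GFP control 1, GFP control 2 or GFP control 4, and in 1 fit over the 4 sets (edgeR adjusted p from 0.0101 to 0.0885 over its alternatives). CCN2, not called with all 8 libraries (log2 fold change -0.64 ± 0.35, edgeR adjusted p = 0.153), was called lower without GFP control 1 or without GFP control 2, where 47.7% and 48.2% of genes were called. ACTA2 overlapped here, at 68.5 to 149 CPM in the interaction GFP set and 31.3 to 142 CPM in the GFP control set. All 4 libraries of the interaction GFP set and none of the GFP control set were over 10% mitochondrial. By label only Cell-cell interaction 1 and 2 of that set were co-cultured, and St8i6a plasmid 4 and 5 carry another plasmid label. Mitochondrial share, co-culture and plasmid therefore cannot be told apart in this comparison.

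The interaction St8i6a set was lower than the interaction GFP set in ANKRD1, where 0.769% of the 13917 genes tested passed and 0.172% were lower. ANKRD1 ranged from 191 to 309 CPM in the interaction St8i6a set and from 452 to 594 CPM in the interaction GFP set, with a log2 fold change of -1.06 ± 0.18 (edgeR adjusted p = 0.0469). The call was lost when any library other than Cell-cell interaction 3 was left out and in 1 fit over the 4 sets (0.0662), with edgeR adjusted p from 0.0125 to 0.169 over its alternatives. CCN1 also did not overlap, at 545 to 814 CPM in the interaction St8i6a set and 914 to 1102 CPM in the interaction GFP set, but its log2 fold change of -0.53 ± 0.17 did not pass (edgeR adjusted p = 0.149). Groups without overlap made up 11.9% of all genes here. Among the 6 libraries over 10% mitochondrial, part of the same 8, Cell-cell interaction 3 and 4 stood against the whole interaction GFP set. These 2 were close to each other (chi-square over its degrees of freedom 10.7). ANKRD1 was lower in Cell-cell interaction 3 and 4 (log2 fold change -0.87, edgeR adjusted p = 0.0435), as was CCN2 (-0.71, edgeR adjusted p = 0.0453). CNN1 was higher there (0.76, edgeR adjusted p = 0.0453), in a fit that called 0.809% of genes.

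The St8i6a plasmid set against the GFP control set gave no call among the 10 genes, and 1 of the 13810 genes tested passed (0.00724% of genes). At an unadjusted p under 0.05 there were 5 members and 1695 genes (12.3%). All 10 log2 fold changes were below 0, with a median of -0.31 beside 0.00 over all genes tested. ANKRD1 had 172, 156, 60.1 and 102 CPM in the St8i6a plasmid set (GFP control 5 and St8i6a plasmid 1 to 3) and 319, 235, 455 and 368 CPM in GFP control 1 to 4. Its log2 fold change of -1.45 ± 0.33 did not pass (edgeR adjusted p = 0.283), although its libraries did not overlap. CCN1 (log2 fold change -0.91 ± 0.26, edgeR adjusted p = 0.327) and TPM2 (-0.39 ± 0.10, edgeR adjusted p = 0.318) also had no overlap and no call. Such separation was seen in 7.57% of all genes.

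**Figure D3:**
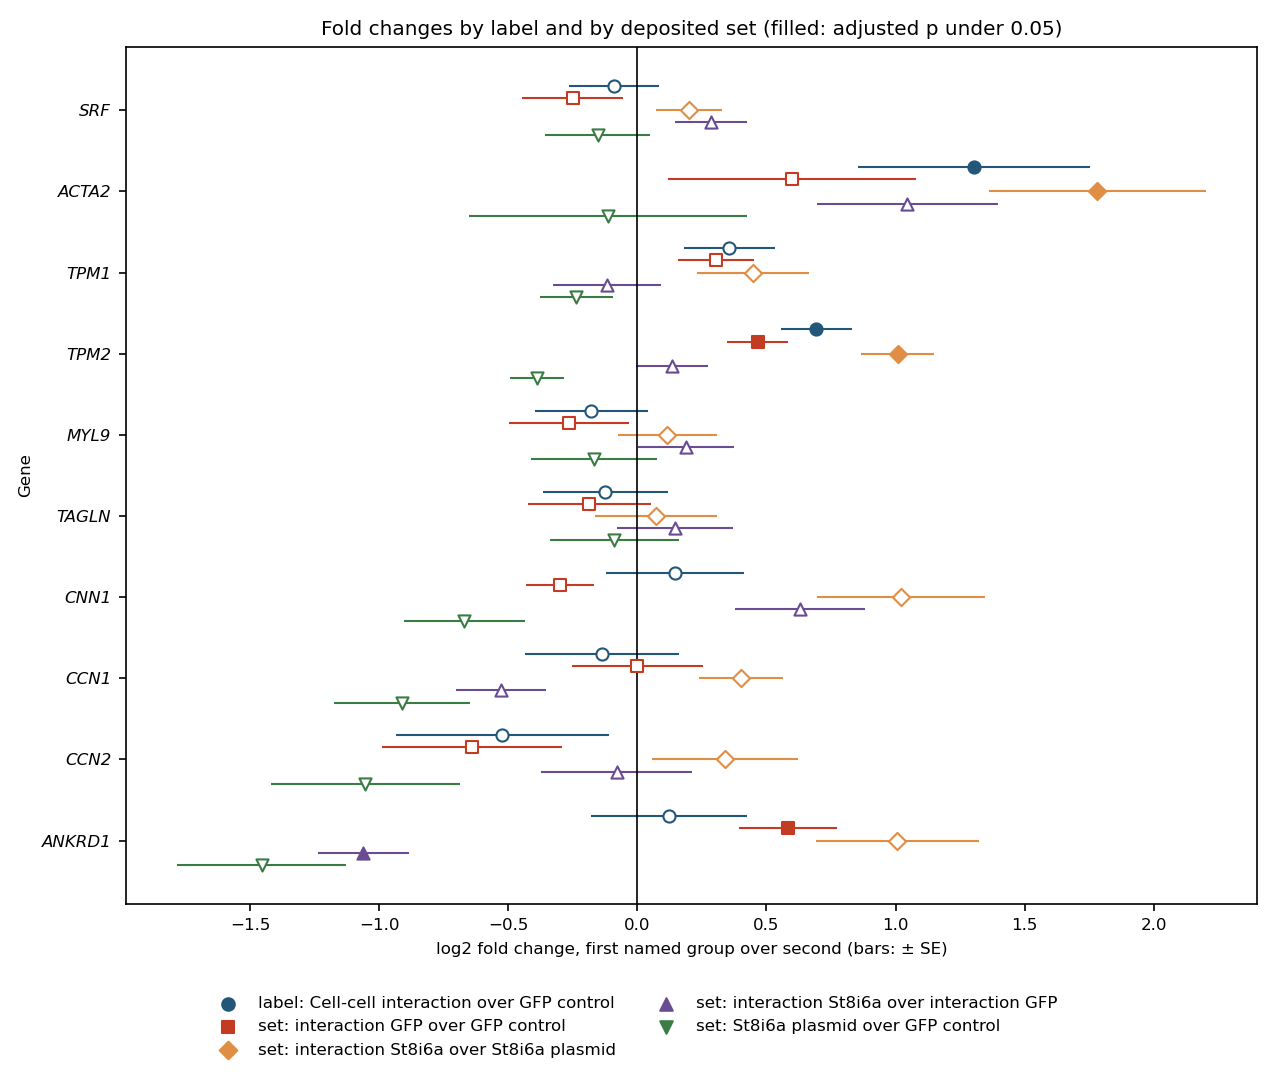
Log2 fold changes (first named group over the second, ± SE) of the 10 genes in 1 comparison of labels and 4 comparisons of deposited sets; filled symbols have an edgeR adjusted p under 0.05. TPM2 is filled in the 3 plotted comparisons of interaction with plasmid libraries (0.69, 0.47 and 1.01; the unplotted Cell-cell interaction over St8i6a plasmid, 0.64, was not called), and ANKRD1 is filled on opposite sides of 0, at 0.58 for the interaction GFP set over the GFP control set and at -1.06 for the interaction St8i6a set over the interaction GFP set.

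The difference between the interaction effects of the St8i6a sets and of the GFP sets was itself tested in 1 edgeR fit over the 16 libraries of the sets. It compares co-culture between the 2 plasmids only if the sets, and not the labels, give the right grouping. None of the 10 genes passed, while 2.97% of the 14690 genes tested did and 24.9% had an unadjusted p under 0.05. CNN1 came closest, with an effect larger by 1.31 ± 0.37 on the log2 scale in the St8i6a sets than in the GFP sets (edgeR adjusted p = 0.0604). It passed without GFP control 2 (7.21% of genes called), St8i6a plasmid 3 (4.88%), Cell-cell interaction 3 (8.28%) or Cell-cell interaction 5 (1.03%), with edgeR adjusted p from 0.0142 to 0.137 over its alternatives. TPM2, called in both pairs of sets, had a difference of 0.53 ± 0.18 that did not pass (edgeR adjusted p = 0.0972). ANKRD1, at 0.41 ± 0.39, did not pass either (edgeR adjusted p = 0.519).

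The authors' deposited tables gave calls for more of these genes. In the authors' deposited table for St8i6a plasmid over GFP control, ANKRD1 had a log2 fold change of -1.49 (FDR 0.000301) and CCN1 one of -0.95 (FDR 0.0162), where 1.37% of 15240 genes had an FDR under 0.05. For St8i6a plasmid over interaction St8i6a, a ratio with the interaction below the line, the authors' deposited table had 4 members under that FDR and 25.2% of all genes. These were ACTA2 (-1.77, FDR 0.00273), TPM2 (-1.01, FDR 4.88e-10), CNN1 (-1.02, FDR 0.00151) and ANKRD1 (FDR 0.00414) in the authors' deposited table, each with a log2 value below 0, meaning a higher level in the interaction cells. For GFP control over interaction GFP, the authors' deposited table had TPM2 at -0.45 (FDR 0.00485), with 49.5% of genes under the threshold. For interaction GFP over interaction St8i6a, ANKRD1 was at 1.06 (FDR 0.00982) in the authors' deposited table, with 4.74% of genes under it. SRF, MYL9, TAGLN, TPM1 and CCN2 had no FDR under 0.05 in any comparison of the authors' deposited tables. The edgeR test behind those values is not given in the sources used here.

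GFP control libraries were compared with Wild type, where 1 of the 10 genes was lower, and 3.16% of the 14496 genes tested passed and 1.97% were lower. By set, Wild type 1 belongs to the interaction St8i6a set and GFP control 5 to the St8i6a plasmid set. Wild type 2 is in no set, so this contrast was made by label only. TPM2 averaged 143 ± 22.3 CPM in GFP control and 263 ± 37.5 CPM in Wild type (SD, 5 and 2 libraries). The log2 fold change was -0.88 ± 0.18 (edgeR adjusted p = 0.0431). The call was lost without GFP control 1, 2, 3 or 4, without Wild type 1, without Wild type 2 and with limma-voom (adjusted p from 0.000671 to 0.321 over its alternatives). ACTA2 (log2 fold change -2.71 ± 0.63, edgeR adjusted p = 0.0620) and CNN1 (-1.33 ± 0.31, edgeR adjusted p = 0.0606) had larger differences that did not pass. DESeq2 called both beside TPM2, among 9.73% of genes, and limma-voom called no member and 2.49% of genes. The libraries of ACTA2, CNN1, TPM1 and TPM2 did not overlap, as for 25.6% of genes. All 10 genes had log2 fold changes below 0, with a median of -0.62 beside 0.02 over all genes tested.

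The 2 Wild type libraries were far apart, so their mean describes neither. Wild type 2 over Wild type 1 was 4.62-fold in ANKRD1, 3.34-fold in CCN2 and 2.94-fold in ACTA2, and 0.821-fold in SRF. KEC plus all cells and Wild type 2 were instead nearly alike, with ratios between 0.956 and 1.04 in the 10 genes. They were the 2 highest libraries for 8 of the 10 genes, the exceptions being CCN1, highest in GFP control 3 and 4, and SRF. Over all genes, these 2 libraries were the closest pair of the series, with a chi-square over its degrees of freedom of 2.27, where counting error alone would give about 1. The KEC plus all cells label had 1 library and no test was made.

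Some markers of smooth muscle, pericytes and fibroblasts were higher in comparisons where ACTA2 was, and their part in the results was not tested. Within GFP control this did not hold for each marker. GFP control 3 and 4 had low ACTA2 (32.6 and 31.3 CPM) but the most PDGFRB (3.53 and 4.04 CPM) and COL1A1 (11264 and 10682 CPM) of that label. ACTG2 was lower in them (0.341 and 0.480 CPM) than in GFP control 1 and 2 (2.34 and 2.16 CPM). Of the list, 5 of 9 tested were higher and 0 lower in the interaction St8i6a set over the St8i6a plasmid set (10.9% and 9.07% of all genes). In Cell-cell interaction over GFP control 5 of 9 were higher and 1 lower (20.8% and 18.7% of all genes). In the interaction GFP set over the GFP control set, where ACTA2 was not called, 3 of 10 were higher and 4 lower. Over all genes there, 21.7% were higher and 25.2% lower, and the median log2 fold change of the list was -0.49. In GFP control over Wild type 0 of 10 were higher and 5 lower, with a median of -1.61, where 1.97% of all genes were lower. PDGFRB, a receptor of pericytes and fibroblasts, had 25.9 to 51.9 CPM in the interaction St8i6a set, 8.01 to 18.6 CPM in the interaction GFP set, 1.17 to 1.76 CPM in the St8i6a plasmid set and 1.58 to 4.04 CPM in the GFP control set. DES, the muscle intermediate filament desmin, had 41.4 to 80.5 CPM in the interaction St8i6a set, 17.6 to 42.4 CPM in the interaction GFP set, 3.07 to 6.85 CPM in the St8i6a plasmid set and 11.04 to 14.3 CPM in the GFP control set. Both were highest in Wild type 2 (109 and 141 CPM) and KEC plus all cells (102 and 138 CPM), as ACTA2 was. MYH11, the defining myosin of mature smooth muscle, stayed between 0.0729 and 2.13 CPM, with 0.216 to 0.465 CPM in the interaction GFP set and 0.600 to 0.647 CPM in the GFP control set. COL1A1 had 2886 to 3559 CPM in the interaction GFP set and 6277 to 11264 CPM in the GFP control set, and the pericyte gene CSPG4 overlapped there (32.7 to 84.5 CPM and 49.0 to 77.4 CPM). In bulk RNA, more cells of a type and more RNA per cell cannot be told apart. The summed list, 10 of 15 genes with a row and dominated by collagens, ran from 8162 to 38020 CPM in the interaction St8i6a set, 6789 to 8199.7 CPM in the interaction GFP set, 9293 to 16038 CPM in the St8i6a plasmid set and 14239 to 27959.8 CPM in the GFP control set. The summed endothelial markers ran from 87.8 to 179.7 CPM in the interaction St8i6a set, 76.5 to 95.4 CPM in the interaction GFP set, 57.9 to 71.9 CPM in the St8i6a plasmid set and 50.7 to 69.8 CPM in the GFP control set. Summed kidney epithelial markers, 10 of 13 with a row, ran from 1174 to 1839 CPM in Cell-cell interaction and 2095 to 3019 CPM in GFP control. Striated muscle markers, 3 of 10 with a row, summed to 33.5 to 78.2 CPM in Cell-cell interaction and 10.3 to 16.1 CPM in GFP control. Summed leukocyte markers, 7 of 14 with a row, stayed between 7.93 and 87.3 CPM, with the highest value in GFP control 2 and not in a co-culture library.

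Genes upstream of SRF did not move in 1 direction in Cell-cell interaction over GFP control. Of the 14 tested SRF cofactors and actin regulators, 4 were higher and 2 lower, where 20.8% of all genes were higher and 18.7% lower, so the list was near the background. In the interaction St8i6a set over the St8i6a plasmid set 3 of 14 were higher and 0 lower (10.9% and 9.07% of all genes), with 8 of 14 positive. In the interaction GFP set over the GFP control set 5 of 15 were higher and 5 lower (21.7% and 25.2% of all genes). MRTFA, the actin-sensing cofactor of SRF, had 280.5 ± 34.6 CPM in Cell-cell interaction and 183 ± 20.7 CPM in GFP control (log2 fold change 0.64 ± 0.13, edgeR adjusted p = 0.00335). MRTFA also rose by set, with a log2 fold change of 0.70 ± 0.17 in the interaction St8i6a set over the St8i6a plasmid set (edgeR adjusted p = 0.0233) and of 0.52 ± 0.14 in the interaction GFP set over the GFP control set (edgeR adjusted p = 0.0108). RHOA, the GTPase that drives actin polymerization, was lower, at 262 ± 29.3 CPM in Cell-cell interaction and 419 ± 36.0 CPM in GFP control (log2 fold change -0.65 ± 0.12, edgeR adjusted p = 0.00242). LIMK2, a kinase that protects filaments by blocking cofilin, had a log2 fold change of 0.48 ± 0.11 (edgeR adjusted p = 0.00701). SRF itself was not called in any of these comparisons.

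Other actin genes were also counted. Of 29 tested genes of the actin cytoskeleton, 4 were higher and 2 lower in Cell-cell interaction than in GFP control, with a median log2 fold change of -0.17, where 39.5% of all genes were called. ACTB, the most abundant of them, had 4987 ± 763 CPM in Cell-cell interaction and 6154 ± 1587 CPM in GFP control (edgeR adjusted p = 0.368). ACTG1, the other cytoplasmic actin, had 3758 ± 432 CPM in Cell-cell interaction and 5048 ± 481 CPM in GFP control (edgeR adjusted p = 0.0892). FLNA, an actin cross-linker, had 4824 ± 824 CPM in Cell-cell interaction and 4345 ± 426 CPM in GFP control (edgeR adjusted p = 0.456), so none of the 3 passed. In the interaction St8i6a set over the St8i6a plasmid set 5 of 29 were higher and 1 lower, and in the interaction GFP set over the GFP control set 2 of 30 were higher and 7 lower. All genes had 10.9% higher and 9.07% lower in the St8i6a sets, and 21.7% higher and 25.2% lower in the GFP sets. ACTG2 (smooth muscle gamma-actin), close kin of ACTA2, had 0.242 to 28.8 CPM over the 18 libraries. Reads shared by near-identical actins or tropomyosins could be split between genes, and how such reads were counted is not given in the sources used here.

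Among the 17 other genes of a YAP and TAZ target signature, 4 were higher and 0 lower in Cell-cell interaction than in GFP control, beside 20.8% higher over all genes. In the interaction St8i6a set over the St8i6a plasmid set 6 were higher and 0 lower (10.9% and 9.07% of all genes), with 15 of 17 positive and a median log2 fold change of 0.34. In the interaction GFP set over the GFP control set 3 were higher and 3 lower (21.7% and 25.2% of all genes). AMOTL2, a junction protein that restrains YAP and is itself a YAP target, had 362 ± 26.5 CPM in the interaction St8i6a set and 273 ± 16.7 CPM in the St8i6a plasmid set (log2 fold change 0.41 ± 0.12, edgeR adjusted p = 0.0434). MYOF and CRIM1, the 2 most abundant of the list, were not called in these comparisons. YAP1 was lower in the interaction GFP set, at 133 ± 18.3 CPM, than in the GFP control set, at 217 ± 32.6 CPM (log2 fold change -0.69 ± 0.14, edgeR adjusted p = 0.00304), and TEAD1 was not called there (0.10 ± 0.13, edgeR adjusted p = 0.528).

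The CCN family did not move as one. CCN4, a relative of CCN1 and CCN2, had 4.76 ± 0.893 CPM in the interaction GFP set and 43.0 ± 6.41 CPM in the GFP control set, a log2 fold change of -3.16 ± 0.18 (edgeR adjusted p = 1.03e-05). In the interaction St8i6a set it had 21.8 ± 6.39 CPM against 40.5 ± 14.0 CPM in the St8i6a plasmid set (-0.90 ± 0.27, edgeR adjusted p = 0.0463). CCN3 was lower in the interaction St8i6a set, at 204 ± 19.1 CPM, than in the St8i6a plasmid set, at 357 ± 66.9 CPM (-0.81 ± 0.16, edgeR adjusted p = 0.0116), where CCN1 and CCN2 were not called. CCN6 stayed under 1 CPM on average in each set.

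Immediate early targets of SRF, which respond through a different class of cofactors, had 10 tested genes. In the interaction St8i6a set over the St8i6a plasmid set 2 were higher, beside 10.9% of all genes, and EGR1 was one, with 96.8 ± 6.72 CPM in the interaction St8i6a set and 58.6 ± 12.0 CPM in the St8i6a plasmid set (log2 fold change 0.72 ± 0.15, edgeR adjusted p = 0.0127). IER3 and KLF6 were not called in any of the set comparisons of interaction with plasmid. Of 12 genes of the TGF-beta response, a pathway that induces ACTA2 and CCN2, 2 were higher and 0 lower in the same comparison, again beside 10.9% and 9.07% of all genes. LTBP2, a matrix protein that binds fibrillin, was one of them, with a log2 fold change of 1.32 ± 0.28 (edgeR adjusted p = 0.0147). In the interaction GFP set over the GFP control set 0 of the 12 were higher and 6 lower, beside 21.7% and 25.2% of all genes.

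The genes whose pattern over the 18 libraries was most like each member were found among 10644 genes with a symbol and a mean of at least 1 CPM, by the root mean square difference of centred log2(CPM + 0.5). These distances describe 18 libraries that share their preparation and carry no test. For TPM2 they were SMTN (smoothelin, a protein of contractile smooth muscle) at 0.122 and ENAH (an actin filament elongator) at 0.141, against a spread of TPM2 itself of 0.457. MYL9 and TAGLN shared CSRP1, a LIM protein of smooth muscle, at 0.187 and 0.217, and NMRK1 at 0.195 and 0.219. CCN1 was closest to AMOTL2 at 0.180 and ABCC2, an organic anion pump, at 0.216.

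**Figure D4:**
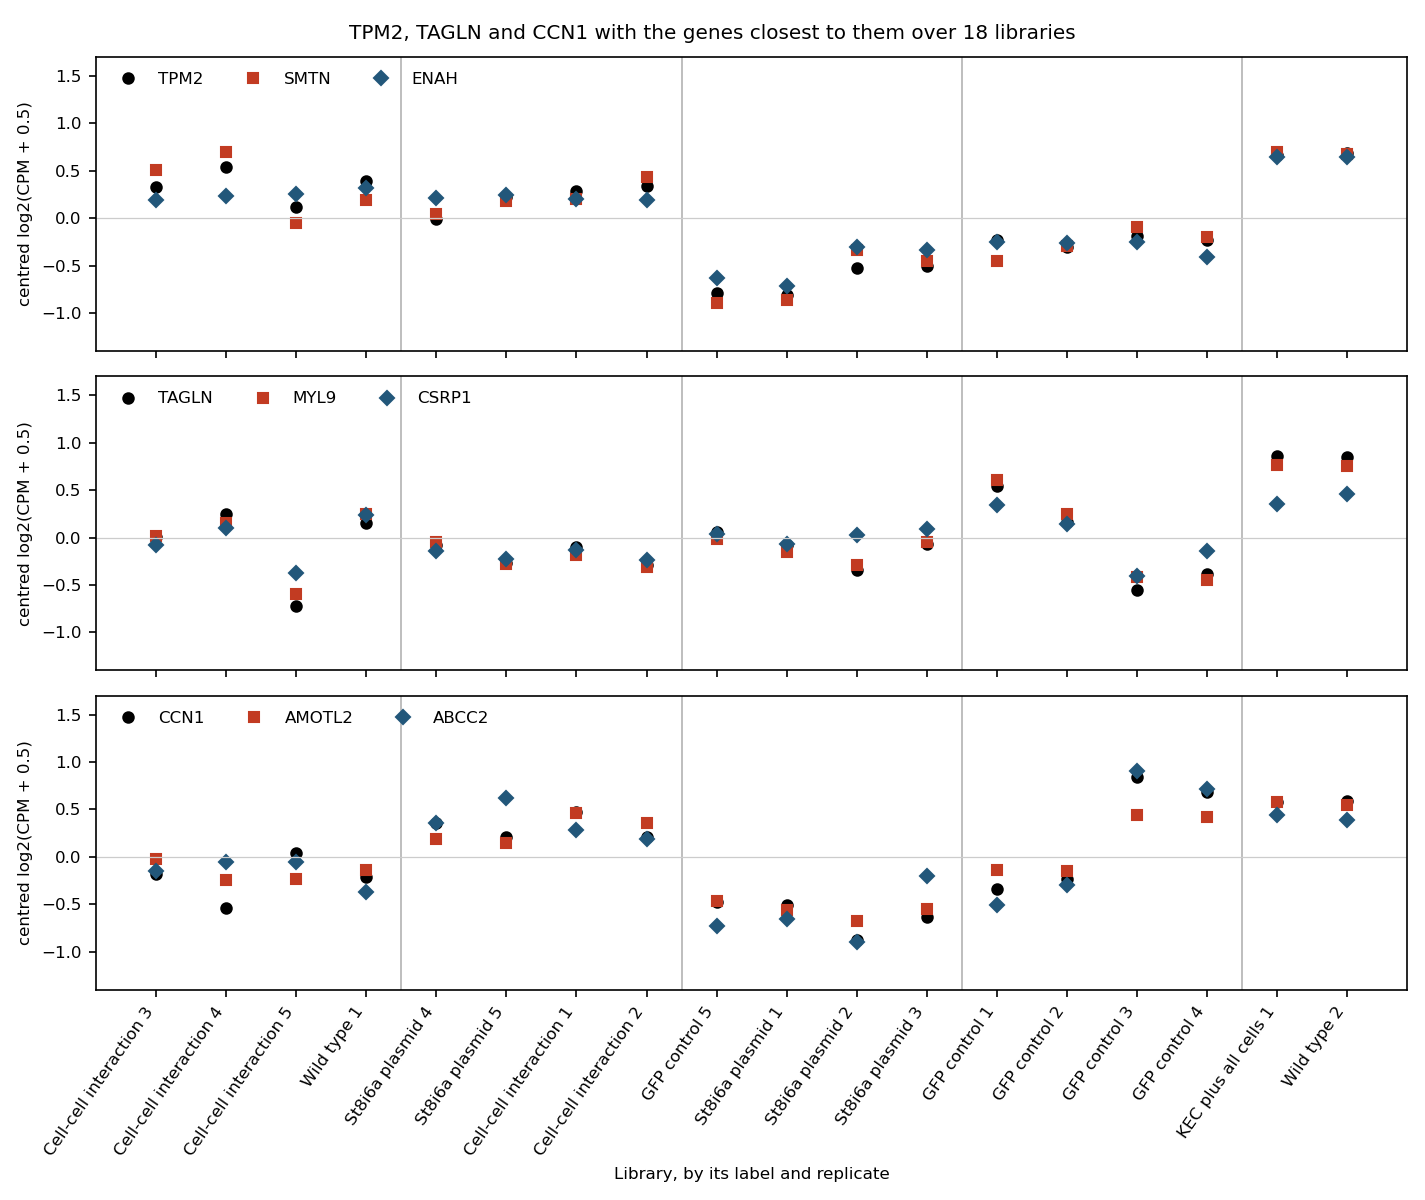
Centred log2(CPM + 0.5) of TPM2, TAGLN and CCN1 with the genes closest to each over 18 libraries (for TAGLN, MYL9 and CSRP1), with libraries ordered by deposited set as in the heat map and vertical lines between sets. The points of each panel lie close together in most libraries, and the panels differ from each other: GFP control 3 and 4 are high in the CCN1 panel and low in the TAGLN panel.

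TPM1 was closest to GULP1 (0.138) and TNS3 (0.153), and SRF to STAM2 (0.117) and PCYT1A (0.121), where the spread of SRF itself was 0.232. For the genes of widest range the nearest were farther: ACTA2 had APBB1IP at 0.585 and SIX3 at 0.592, both with under 2 CPM on average, and ANKRD1 had ACHE at 0.533 and MFSD4A at 0.546. CNN1 had PKIA at 0.327 and PLCE1 at 0.347, and CCN2 had CHRDL1 at 0.355 and CRTAC1 at 0.362. Among the members, TPM1 and TPM2 followed MYL9 and TAGLN in closeness, at 0.257. CCN1 and CCN2 were 0.496 apart, and ACTA2 had no member nearer than CNN1, at 0.897.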

How the data were processed

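Total RNA of 18 libraries was measured. The submitters' processing notes name the build susScr11, STAR 2.7.10a, Subread 2.0.3 (featureCounts), edgeR 3.40.2 and FastQC 0.11.5. No annotation, strand setting, multimapping rule or edgeR test is given in the sources used here. Raw gene counts were used as deposited. The deposited log2 columns hold CPM per library and fold changes per comparison, per the file headers. The signed fold score, p-value and FDR columns were deposited by the authors from their own comparisons, and the other column used, gene length in bases, is as deposited. The smallest total count of a gene in the tables was 23.

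From the counts, TMM-scaled CPM and two-sided quasi-likelihood tests (filterByExpr, adjusted p under 0.05) were computed with edgeR 4.0.16 in R 4.3.3, with limma 3.58.1 (voom) and DESeq2 1.42.0 as alternatives. SE was derived from the quasi-likelihood F statistic. Groups came from the treatment labels; the alternative grouping used the libraries with an absolute weight over 0.15 in a least-squares fit of each deposited log2 fold change on the 18 deposited log2 columns. Other alternatives were RLE factors, no filter, all labels in 1 fit, mitochondrial genes left out, libraries under 10% mitochondrial, and each library left out. The tests were checked on simulated counts. No exon of a member overlapped an exon of another gene. Named genes were the 10 members, the 2 genes most like each, and the 3 most abundant genes of each pathway list, of which 1 is not reported here; ACTG2, PDGFRB, DES, MYH11, COL1A1 and CSPG4 come from the marker and pathway lists and were picked with their values seen. The members, lists, comparisons and sets were chosen with earlier results of these data known. Coordinates are as deposited, on susScr11.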

Additional observations from a re-analysis of the deposited data

Results flagged for a closer look

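With 5 libraries per label, the gap of the highest or lowest library to its neighbour was compared with the whole range of the label on the log2(CPM + 0.5) scale, against a critical value of 0.71. Of 30 gene and label groups, 2 passed, and chance flags about 1 in 20 groups. TPM1 in Cell-cell interaction was set apart by its lowest library, Cell-cell interaction 5 with 883 CPM, where the next was 1459 CPM (gap over range 0.924). That library is also the only one of its label under 10% mitochondrial. TPM2 in GFP control was set apart by its lowest library, GFP control 5 with 104 CPM, where the next was 146 CPM (gap over range 0.804). The deposited comparisons weigh GFP control 5 with St8i6a plasmid 1, 2 and 3, whose TPM2 levels were 102, 125 and 127 CPM. The part of these library features in the values was not tested.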

How the results depend on the processing

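RLE factors, no filter on low counts and leaving out mitochondrial genes turned no member's direction; the choice of libraries did. No paired analysis was possible because the labels give the libraries no shared replicate numbers. The comparison of the interaction sets with each other, the difference of effects, the fit over 4 sets, and leaving out libraries of the sets, singly or by mitochondrial share, were chosen after seeing the data. With only libraries under 10% mitochondrial, Cell-cell interaction is 1 library, and every such value assumes that it varies like the others. The cause of these shifts was not tested. With libraries under 10% mitochondrial, the log2 fold change turned to TPM2 -0.26 for St8i6a plasmid over GFP control. It also turned to SRF 0.080, TPM1 -0.35, CNN1 -0.46, CCN2 0.082, ANKRD1 -0.74 for Cell-cell interaction over GFP control. It also turned to TPM1 -0.15, MYL9 -0.52, TAGLN -0.65, CNN1 -0.035 for Cell-cell interaction over St8i6a plasmid. It also turned to MYL9 -0.032, TAGLN -0.16 for interaction St8i6a set over St8i6a plasmid set. With the deposited sets in place of the labels, the log2 fold change turned to TPM2 -0.39 for St8i6a plasmid over GFP control. It also turned to CNN1 -0.30, CCN1 0.000499 for Cell-cell interaction over GFP control. With all labels in 1 fit, the log2 fold change turned to SRF -0.0046, MYL9 -0.0012 for Cell-cell interaction over St8i6a plasmid. With libraries over 10% mitochondrial, the log2 fold change turned to TPM1 0.11 for interaction St8i6a set over interaction GFP set. With the 4 sets in 1 fit, the log2 fold change turned to CCN1 -0.0035 for interaction GFP set over GFP control set. Genes called for St8i6a plasmid over GFP control were 11 (DESeq2), 1 (library sets of the authors' deposited comparison). Genes called for Cell-cell interaction over GFP control were 140 (libraries under 10% mitochondrial). Genes called for Cell-cell interaction over St8i6a plasmid were 2705 (DESeq2), 337 (limma-voom), 1320 (all labels in 1 fit), 151 (mitochondrial genes left out), 2 (libraries under 10% mitochondrial), 2791 (library sets of the authors' deposited comparison). Genes called for GFP control over Wild type were 1410 (DESeq2). Genes called for St8i6a plasmid set over GFP control set were 12 (all 4 deposited sets in 1 fit). Genes called for interaction St8i6a set over interaction GFP set were 192 (all 4 deposited sets in 1 fit). Leaving out 1 library at a time moved the genes called to 0 to 1 for St8i6a plasmid over GFP control, 0 to 2 for St8i6a plasmid set over GFP control set, 0 to 3308 for Cell-cell interaction over St8i6a plasmid, 1108 to 3735 for interaction St8i6a set over St8i6a plasmid set, 65 to 407 for GFP control over Wild type, 0 to 1380 for interaction St8i6a set over interaction GFP set, 76 to 1229 for difference of the 2 interaction effects over 4 sets. Log2 fold changes of members that crossed 0 without 1 library ran, for St8i6a plasmid over GFP control, from -0.18 to 0.042 in SRF, from -0.43 to 0.085 in ACTA2, from -0.13 to 0.058 in TPM1, from -0.083 to 0.19 in TPM2, from -0.29 to 0.0034 in TAGLN, from -0.48 to 0.20 in ANKRD1. They ran, for St8i6a plasmid set over GFP control set, from -0.28 to 0.018 in SRF, from -0.37 to 0.40 in ACTA2, from -0.31 to 0.079 in MYL9, from -0.24 to 0.16 in TAGLN. They ran, for Cell-cell interaction over GFP control, from -0.18 to 0.0056 in SRF, from -0.27 to 0.0033 in TAGLN, from -0.11 to 0.25 in CNN1, from -0.29 to 0.067 in CCN1, from -0.056 to 0.29 in ANKRD1. They ran, for interaction GFP set over GFP control set, from -0.35 to 0.056 in TAGLN, from -0.17 to 0.20 in CCN1. They ran, for Cell-cell interaction over St8i6a plasmid, from -0.041 to 0.068 in SRF, from -0.076 to 0.12 in MYL9, from -0.072 to 0.18 in TAGLN, from -0.053 to 0.64 in ANKRD1. They ran, for interaction St8i6a set over St8i6a plasmid set, from -0.039 to 0.28 in MYL9, from -0.053 to 0.25 in TAGLN. They ran, for GFP control over Wild type, from -0.40 to 0.42 in CCN1, from -1.34 to 0.43 in CCN2, from -1.85 to 0.39 in ANKRD1. They ran, for interaction St8i6a set over interaction GFP set, from -0.19 to 0.038 in TPM1, from -0.40 to 0.11 in CCN2. None of these reversals touched a called value. Low counts limit the endothelial and leukocyte markers more than the members.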
